A study of Rattus with 8 samples.

Results

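Potassium channel genes were followed through messenger RNA libraries of cultured rat neural stem cells. They were taken as the genes of the deposited table whose symbol starts with Kcn, apart from Kcnk2, Kcnk4, Kcnk10 and Kcnj13, which the selection rule leaves out. This gave 85 genes of 18374, and 63 of them had enough counts to be tested, among 14336 tested genes. The study measured RNA on day 5 in 4 groups of 2 samples. Control cells were neural stem cells that received nothing. Piezoelectric cells were cultured with a piezoelectric material, which turns mechanical deformation into electric charge. Ultrasound cells were treated with ultrasound. Nanosticker cells were cultured with piezoelectric nanostickers, and whether they also received ultrasound, or what sets their material apart from the other one, is not in the labels. The labels name neither the strain nor the source of the cells, nor whether samples were grown as separate cultures. Each p-value therefore measures the spread between these samples alone, possibly a technical one.

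Potassium channels let potassium leave or enter a cell along its gradient and so set the resting potential and the shape of electrical signals. Voltage-gated (Kv) channels open on depolarisation and are built of pore subunits, of silent subunits that open no channel alone and modify Kv2 channels, and of auxiliary proteins that change their gating and traffic. Calcium- and sodium-activated channels answer the ions that enter during activity. Inward rectifiers (Kir) hold the resting potential, and in glia they carry the uptake of potassium released by neurons. Tandem pore channels carry background current. Neural stem cells and their glial and neuronal progeny use different members of these families.

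The libraries held from 15239133 to 15628667 counts, of which the potassium channel genes took from 12020 to 14970. From 79 to 83 of the 85 genes had a count in a library, and each of the 85 had a count in at least 1 library. Control replicates 1 and 2 differed more than the pairs of the other groups did. The ratio of replicate 1 to replicate 2 fell with transcript length in control (Spearman rho -0.467 across 13504 genes, which are not independent replicates), against 0.104 to 0.205 in the other groups. Control replicate 1 lay below control replicate 2 for 41 of the 63 tested channel genes, with a median difference of -0.15 on the log2 CPM scale. CPM brings the read counts of each library to the same total, with TMM (trimmed mean of M values) factors, and TPM also divides by transcript length, so that levels of different genes are compared in TPM.

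In untreated cells the potassium channel message was led by Kcnj10, which encodes the glial inward rectifier of potassium uptake. It was measured at 82.3 and 121 TPM in control, 123 and 119 in piezoelectric, 124 and 118 in ultrasound, and 180.5 and 172 in nanosticker. It was the highest of the 85 genes in every group, and the nanosticker libraries held the highest values. Next in control came Kcnmb4, a neuronal beta subunit of the calcium-activated BK channel, at 60.1 ± 0.354 TPM (mean ± SD, n = 2), and Kcne5, a membrane-spanning auxiliary Kv subunit, at 30.3 ± 5.59 TPM. These 3 genes made up 39.9% of the summed TPM of the channel genes in control. In CPM, which does not divide by length, Kcne5 lay below Kcnd3 and Kcng1 in both control libraries, so its rank rests on few reads. Kcnn3, a small conductance calcium-activated channel, stood at 25.4 ± 12.3 TPM and Kcnd3, a pore subunit of the transient A-type Kv4 channel, at 25.4 ± 4.24 TPM. Kcnip3, a calcium-binding partner of Kv4 channels that also acts as a transcriptional repressor, stood at 19.3 ± 0.948 TPM. Kcnab2, a cytoplasmic Kv beta subunit with fractional counts, stood at 16.1 ± 2.60 TPM. Kcnd2, another Kv4 pore subunit with fractional counts, stood at 13.5 ± 2.91 TPM, and Kcnt1, a sodium-activated channel, at 12.4 ± 2.96 TPM. Kcnip1, a further Kv4 partner, and Kcng1, a silent subunit, stood at 11.2 ± 0.0919 and 10.7 ± 2.98 TPM.

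A mean of at least 1 TPM was reached by 47 genes in control, 46 in piezoelectric, 47 in ultrasound and 44 in nanosticker. At least 10 TPM was reached by 13, 11, 12 and 11 genes in the same order. The 22 genes that were not tested stayed at or below 1 CPM in every library. They included Kcnip4, Kcnk6, Kcnk7, Kcnk9, Kcnn4, Kcnt2 and Kcnq1, with a highest value of 0.728 CPM, seen for Kcnip4 in nanosticker replicate 1. Kcnrg, which encodes a regulator and no channel, was also among them. Kcnip2, a Kv4 partner, was tested but its deposited counts were erratic, at 10.2 and 111 in control, 0.01 and 0.02 in piezoelectric, 0.02 and 53.0 in ultrasound, and 37.3 and 54.9 in nanosticker. Its estimated counts are not whole, whether reads were divided with another feature was not tested, and no direction is given for it.

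**Figure D1:**
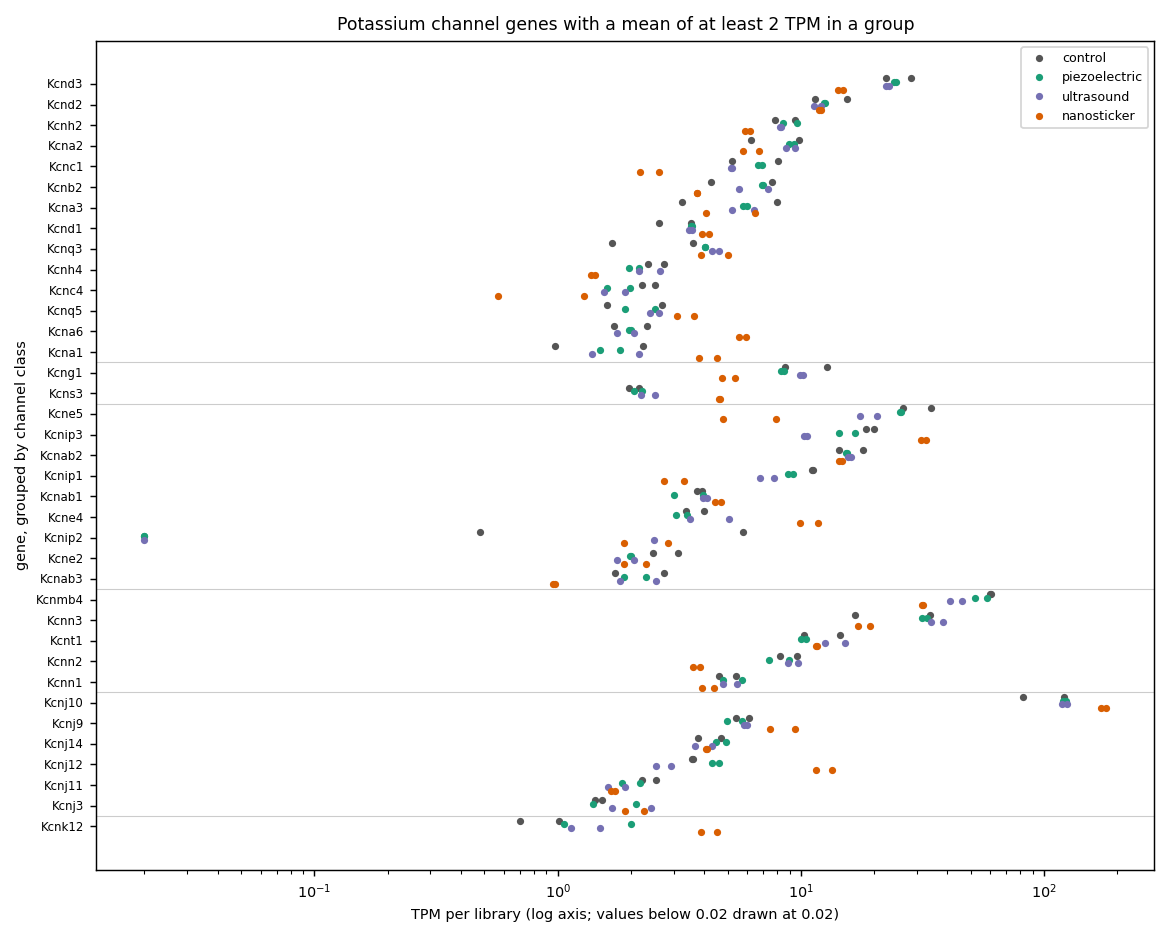
TPM per library (log axis) of the potassium channel genes with a mean of at least 2 TPM in a group, in blocks by channel class, with a point for each library coloured by group and values below 0.02 drawn at 0.02. Kcnj10 is the highest gene in every group, orange nanosticker points lie apart from the others for genes such as Kcne5, Kcne4 and Kcnj12, and Kcnip2 scatters within groups.

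The summed TPM of the 85 genes was 482 ± 77.8 in control (mean ± SD, n = 2) and 485 ± 11.9 in nanosticker, a difference smaller than the spread of the control libraries. Its make-up differed between the groups. Inward rectifiers took 24.3% and 26.5% of the sum in the control libraries, 29.5% and 29.6% in piezoelectric, 31.0% and 30.1% in ultrasound, and 42.7% and 43.3% in nanosticker. Calcium- and sodium-activated channels took 23.9% and 23.6% in control and 14.8% and 14.7% in nanosticker. Voltage-gated pore subunits took 25.05% and 27.3% in control and 22.0% and 21.6% in nanosticker. In each of these 3 classes the nanosticker shares lay outside the range of the other 6 libraries. In summed TPM the voltage-gated pore subunits overlapped, at 107 and 147 TPM in control and 109 and 103 TPM in nanosticker. These sums are dominated by a few abundant genes and were not tested. In bulk RNA, fewer cells of a type and less RNA per cell cannot be told apart.

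**Figure D2:**
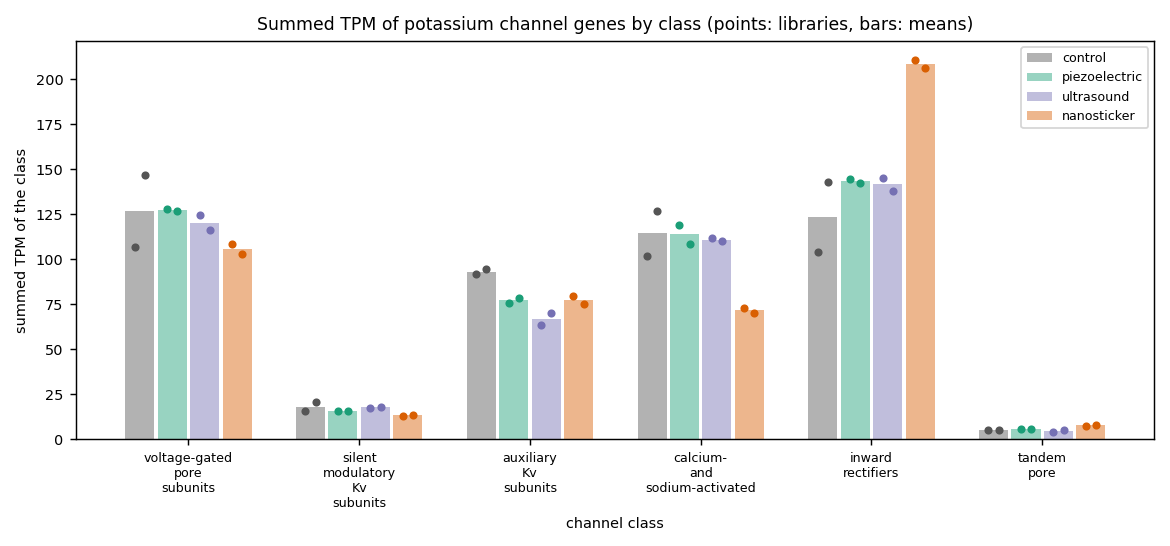
Summed TPM of each channel class, with a point for each library and a bar for the mean of the 2 libraries of a group. The inward rectifier bar rises from 123 TPM in control to 209 TPM in nanosticker and the calcium- and sodium-activated bar falls from 114 to 71.6 TPM.

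The nanosticker comparison with control asks which channel genes differ after culture with the nanostickers. Of 63 tested genes, 11 were higher and 21 were lower in nanosticker cells, by edgeR's quasi-likelihood test with Benjamini-Hochberg adjustment over all tested genes and a threshold of 0.05, which holds for each adjusted p that follows. That is 17.5% higher and 33.3% lower, where 19.8% of all tested genes were higher and 17.7% were lower. The median log2 fold change was -0.20 over the channel genes and 0.01 over all tested genes. Both nanosticker libraries lay above the other 6 libraries for 13 channel genes (20.6%) and below them for 21 (33.3%), against 24.8% and 22.8% of all tested genes. DESeq2, an alternative test, kept 24 of the 32 calls and lost 8, among them Kcnab3, Kcnh2, Kcnj9, Kcnk13, Kcnmb2, Kcnq5 and Kcnv1. Of the 32 calls, 22 held under each alternative processing that gave a value and with each library left out in turn.

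Cell type markers moved with the groups too. Summed TPM of 6 oligodendrocyte markers was 4949.7 to 5334 in control, 6762 to 6820 in ultrasound and 17008 to 17151 in nanosticker, and 6 of 6 were higher in nanosticker than in control. The 6 astrocyte markers summed to 3399 to 3491 TPM in control and 1980 to 1996 TPM in nanosticker (5 of 6 lower). The 8 neuronal markers went from 659.5 to 662 TPM in control to 381 to 389 TPM in nanosticker (6 lower and 1 higher), and 6 stem and progenitor markers from 4866 to 5325 TPM to 2935 to 2941 TPM (3 lower and 1 higher). Most of that last sum was Fabp7, at 4985 and 4470 TPM in control and 2536 and 2515 TPM in nanosticker. Sox2 went the other way, at 201 and 219 TPM in control and 274 and 303 TPM in nanosticker. Nes was at 77.2 and 105 TPM in control and 77.9 and 77.0 TPM in nanosticker. The 6 microglial markers went from 19.8 to 21.3 TPM to 1.88 to 1.90 TPM (5 of 6 lower). Cx3cr1 was at 0 in both nanosticker libraries, but at only 0.387 and 0.644 CPM in control. P2ry12 did not fall, at 0.80 and 0.74 TPM in control and 0.80 and 0.84 TPM in nanosticker. The stem and progenitor markers that define the labelled cell type were tested 6 of 6, beside markers of the more mature types. Of the remaining lists, 1 of 2 oligodendrocyte precursor markers, 3 of 5 fibroblast and meningeal markers and 1 of 4 choroid plexus markers were higher in nanosticker, and of 4 tested mural markers 2 were higher and 2 lower. Of 4 endothelial markers 1 was tested, and it was higher. The endothelial marker Cldn5 and the mural marker Rgs5 were at 0 CPM in each library apart from 0.0639 CPM in ultrasound replicate 2. The part of these marker changes in the channel gene differences was not tested.

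Among voltage-gated pore subunits, 9 of 25 tested genes fell and 4 rose. Kcnq3, a subunit of the M channel that restrains repetitive firing of neurons, was at 6.33 and 12.6 CPM in control, 14.6 and 14.9 in piezoelectric, 17.1 and 16.6 in ultrasound, and 18.9 and 14.6 in nanosticker. The control libraries were the lowest of the 8, with replicate 1 far below replicate 2. The nanosticker libraries overlapped both other treated groups, which did not overlap each other. The change from control to nanosticker did not pass the test (log2 fold change 0.82 ± 0.30 (SE), adjusted p = 0.0772). Kcnq3 passed with DESeq2 (adjusted p = 0.00708) and with the length trend removed (adjusted p = 0.0387). Its log2 fold change was 0.41 without control replicate 1 and 1.40 without control replicate 2. Kcnq5, which contributes to M-type current, stood at 3.81 and 5.99 CPM in control, 5.83 and 4.46 in piezoelectric, 6.16 and 5.88 in ultrasound, and 8.74 and 7.42 in nanosticker. Both nanosticker libraries were the highest and the gene rose (log2 fold change 0.72 ± 0.21 (SE), adjusted p = 0.0187), but without control replicate 1 the call was lost (log2 fold change 0.43, adjusted p = 0.114), and likewise without nanosticker replicate 1 (log2 fold change 0.60, adjusted p = 0.138). Over its alternatives the adjusted p of Kcnq5 ran from 5.21e-04 to 0.138.

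Kv3 channels repolarise fast-spiking neurons. Kcnc1 (chr1:102414352-102456718, plus strand) was at 14.5 and 20.4 CPM in control, 17.4 and 18.1 in piezoelectric, 13.4 and 14.1 in ultrasound, and 6.82 and 6.20 in nanosticker. Its nanosticker libraries lay far below the others, 2.68-fold lower than control (log2 fold change -1.42 ± 0.16 (SE), adjusted p = 1.32e-05). Kcnc4 was at 3.87 and 4.06 CPM in control, 3.33 and 2.74 in piezoelectric, 3.27 and 2.75 in ultrasound, and 0.993 and 2.23 in nanosticker, with both nanosticker libraries lowest but unlike each other. It fell (log2 fold change -1.30 ± 0.31 (SE), adjusted p = 0.00494), and the call was lost without nanosticker replicate 1 (log2 fold change -0.83, adjusted p = 0.0532, in a range of 0.00102 to 0.0532 over its alternatives). For Kcnc2 the change was -0.18 ± 0.29 on the log2 scale and did not pass the test.

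Kv4 channels carry the transient A-type current of dendrites and of glial precursors. Kcnd3 (chr2:207923775-208140727, plus strand), their most abundant pore subunit here, was at 98.6 and 118 CPM in control, 106 and 105 in piezoelectric, 99.04 and 105 in ultrasound, and 66.3 and 62.6 in nanosticker. Both nanosticker libraries were below the other 6 (1.68-fold lower than control, log2 fold change -0.75 ± 0.080 (SE), adjusted p = 9.45e-06). Kcnd2 was at 29.1 and 36.8 CPM in control, 30.6 and 31.5 in piezoelectric, 30.6 and 29.4 in ultrasound, and 30.2 and 30.7 in nanosticker, with groups that overlap (log2 fold change -0.11 ± 0.10 (SE), adjusted p = 0.408), and Kcnd1 was at 8.26 and 5.67 CPM in control, 8.08 and 8.16 in piezoelectric, 8.28 and 8.24 in ultrasound, and 9.20 and 9.71 in nanosticker, highest in the nanosticker libraries without passing the test (log2 fold change 0.44 ± 0.17 (SE), adjusted p = 0.0601). Kcnd1 passed with the length trend removed (adjusted p = 0.0455) and with whole counts only (adjusted p = 0.0364). Without control replicate 1 the log2 fold change was 0.73 for Kcnd1 and -0.28 for Kcnd2. Kcnb2, a Kv2 pore subunit of the delayed rectifier of neurons, was at 17.2 and 26.2 CPM in control, 24.9 and 22.4 in piezoelectric, 22.7 and 21.2 in ultrasound, and 14.96 and 13.9 in nanosticker. It was lowest in nanosticker (log2 fold change -0.59 ± 0.18 (SE), adjusted p = 0.0305), but the call was lost in 8 alternatives, among them without control replicate 2 (log2 fold change -0.26, adjusted p = 0.0976), piezoelectric replicate 2, and either library of ultrasound or nanosticker, with adjusted p from 1.34e-06 to 0.161.

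Kv1 channels hold down excitability, above all along axons. Here 2 of 5 tested Kv1 genes rose and the others did not pass the test. Kcna6 (chr4:159252923-159288014, plus strand) was at 7.42 and 9.47 CPM in control, 8.34 and 8.61 in piezoelectric, 7.64 and 9.20 in ultrasound, and 24.4 and 25.8 in nanosticker. The 6 libraries outside nanosticker overlapped and both nanosticker libraries stood far above them, 2.97-fold higher than control (log2 fold change 1.57 ± 0.14 (SE), adjusted p = 1.42e-06). Kcna1 (chr4:159190781-159192526, minus strand) was at 0.968 and 2.06 CPM in control, 1.73 and 1.47 in piezoelectric, 2.12 and 1.41 in ultrasound, and 4.50 and 3.78 in nanosticker, again highest in nanosticker (2.72-fold, log2 fold change 1.45 ± 0.33 (SE), adjusted p = 0.00382). Kcna2, the Kv1 gene with the most reads, was at 47.2 and 69.5 CPM in control, 67.8 and 67.02 in piezoelectric, 71.3 and 67.5 in ultrasound, and 51.2 and 43.6 in nanosticker. Control replicate 1 lay within the nanosticker range and control replicate 2 above it, and the change did not pass (log2 fold change -0.30 ± 0.18 (SE), adjusted p = 0.265). It passed with the length trend removed (adjusted p = 0.00441), and its log2 fold change was -0.56 without control replicate 1. Kcna3 was at 2.84 and 6.503 CPM in control, 4.87 and 5.17 in piezoelectric, 5.58 and 4.66 in ultrasound, and 5.69 and 3.57 in nanosticker, and its sign depended on the control library. The log2 fold change was -0.01 with all libraries (adjusted p = 0.986), -0.49 without control replicate 1 and 0.70 without control replicate 2.

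Ether-a-go-go (Kcnh) channels include slow delayed rectifiers and the channel that sets cardiac repolarisation. Of 7 tested, 1 rose and 3 fell. Kcnh1 (chr13:110920712-111232291, plus strand), the founding member, was at 1.48 and 1.03 CPM in control, 1.41 and 1.66 in piezoelectric, 2.25 and 1.72 in ultrasound, and 5.56 and 6.41 in nanosticker. It was 4.73-fold higher in nanosticker than in control (log2 fold change 2.24 ± 0.26 (SE), adjusted p = 1.71e-05), with both libraries above the other 6. Kcnh7 (chr3:48662080-49168716, plus strand), of the Erg subfamily, went the other way at 4.45 and 6.70 CPM in control, 8.34 and 6.31 in piezoelectric, 5.46 and 5.68 in ultrasound, and 2.32 and 2.02 in nanosticker. Both nanosticker libraries were lowest (2.56-fold lower than control, log2 fold change -1.36 ± 0.24 (SE), adjusted p = 6.45e-04). Kcnh4, of the Elk subfamily, fell as well (log2 fold change -0.81 ± 0.18 (SE), adjusted p = 0.00364). Kcnh2, the most abundant of the family, was at 17.5 and 19.96 CPM in control, 18.5 and 21.7 in piezoelectric, 18.8 and 18.8 in ultrasound, and 14.03 and 14.8 in nanosticker. Its nanosticker libraries were the lowest (log2 fold change -0.38 ± 0.11 (SE), adjusted p = 0.0179), but the call was lost without control replicate 2 (log2 fold change -0.28, adjusted p = 0.0825), without nanosticker replicate 1 (log2 fold change -0.34, adjusted p = 0.108) or replicate 2 (log2 fold change -0.42, adjusted p = 0.0575), in a range of 0.00354 to 0.108 over its alternatives.

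**Figure D3:**
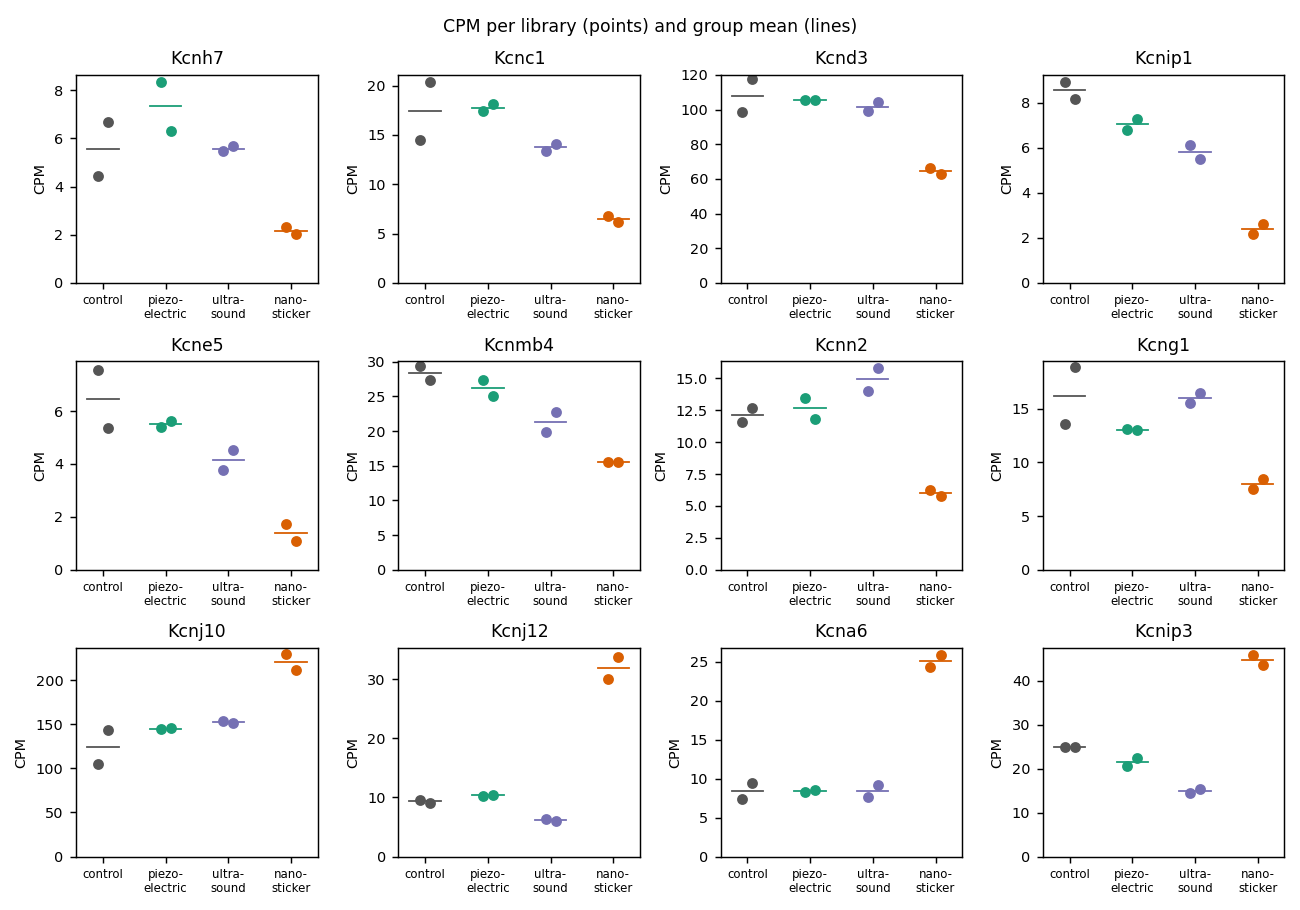
CPM per library (points) and group mean (lines) for 12 potassium channel genes, each panel with its own axis from 0. For the first 8 genes the 2 nanosticker points are the lowest and for the last 4 the highest, and Kcnip3 and Kcnj12 are lowest in ultrasound.

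Silent subunits, which modify Kv2 channels, mostly fell, with 4 of 6 tested genes lower and 1 higher. Kcng1 (chr3:165018646-165040966, minus strand), the most abundant, was at 13.6 and 18.9 CPM in control, 13.1 and 13.01 in piezoelectric, 15.5 and 16.5 in ultrasound, and 7.55 and 8.50 in nanosticker. The nanosticker libraries were below the others (2.02-fold lower than control, log2 fold change -1.02 ± 0.15 (SE), adjusted p = 1.73e-04). Kcnf1 was at 2.26 and 2.12 CPM in control, 1.80 and 2.49 in piezoelectric, 2.25 and 2.94 in ultrasound, and 0.927 and 0.742 in nanosticker, again lowest in nanosticker (log2 fold change -1.38 ± 0.32 (SE), adjusted p = 0.00403). Kcng4, whose counts are fractional and whose value is uncertain, was at 2.00 and 1.80 CPM in control, 1.09 and 1.85 in piezoelectric, 1.22 and 1.02 in ultrasound, and 0.463 and 0.337 in nanosticker and fell (log2 fold change -2.22 ± 0.41 (SE), adjusted p = 7.99e-04). Kcnv1 fell from 1.77 ± 0.407 to 0.835 ± 0.0582 CPM (log2 fold change -1.08 ± 0.32 (SE), adjusted p = 0.0192), a call lost without control replicate 2 (log2 fold change -0.83, adjusted p = 0.132), without nanosticker replicate 1 (log2 fold change -1.01, adjusted p = 0.101) or replicate 2 (log2 fold change -1.15, adjusted p = 0.0701), with adjusted p from 0.0135 to 0.185 over its alternatives. Kcns3 (chr6:36764040-36819810, minus strand) was the silent subunit that rose. It was at 2.71 and 2.77 CPM in control, 2.95 and 2.81 in piezoelectric, 3.02 and 3.51 in ultrasound, and 6.42 and 6.34 in nanosticker, with both nanosticker libraries far above the other 6 (2.32-fold higher than control, log2 fold change 1.22 ± 0.19 (SE), adjusted p = 2.21e-04).

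Auxiliary subunits moved both ways, with 3 of 9 tested genes lower and 2 higher. Kcne5 (chrX:113583123-113584459, minus strand) was at 7.55 and 5.34 CPM in control, 5.39 and 5.61 in piezoelectric, 3.79 and 4.53 in ultrasound, and 1.72 and 1.08 in nanosticker. Nanosticker libraries were the lowest, 4.58-fold below control (log2 fold change -2.20 ± 0.26 (SE), adjusted p = 2.17e-05). Kcne4 (chr9:84688873-84693066, plus strand), an inhibitor of several Kv channels, was at 2.78 and 3.09 CPM in control, 2.44 and 2.17 in piezoelectric, 2.89 and 3.32 in ultrasound, and 9.93 and 9.17 in nanosticker. Here the nanosticker libraries were the highest, 3.25-fold above control (log2 fold change 1.70 ± 0.18 (SE), adjusted p = 8.67e-06). The Kv4 partners split in the same manner. Kcnip1 (chr10:18558128-18942677, plus strand) was at 8.91 and 8.18 CPM in control, 6.80 and 7.27 in piezoelectric, 6.10 and 5.49 in ultrasound, and 2.18 and 2.63 in nanosticker, a fall of 3.54-fold from control to nanosticker (log2 fold change -1.82 ± 0.18 (SE), adjusted p = 3.40e-06) with no overlap between nanosticker and the rest. Kcnip3 (chr3:120023062-120087650, minus strand) was at 25.05 and 25.05 CPM in control, 20.7 and 22.4 in piezoelectric, 14.4 and 15.5 in ultrasound, and 45.9 and 43.6 in nanosticker. It was 1.79-fold higher in nanosticker than in control (log2 fold change 0.84 ± 0.080 (SE), adjusted p = 3.17e-06). Kcnab3, a Kv beta subunit, fell from 2.64 ± 0.724 to 1.20 ± 0.0158 CPM (log2 fold change -1.13 ± 0.30 (SE), adjusted p = 0.0102), and without control replicate 2 the call was lost (log2 fold change -0.82, adjusted p = 0.0753), as it was without nanosticker replicate 1 (log2 fold change -1.12, adjusted p = 0.0574) or replicate 2 (log2 fold change -1.14, adjusted p = 0.0531), in a range of 0.00199 to 0.0789. Kcnab2 changed by -0.03 ± 0.078 and Kcnab1 by 0.26 ± 0.16 on the log2 scale, neither past the threshold, and both have fractional counts.

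Calcium- and sodium-activated channels had 3 of 7 tested genes lower, and the others did not pass the test. Kcnmb4 (chr7:59461808-59514759, minus strand), the BK beta subunit, was at 29.4 and 27.4 CPM in control, 27.4 and 25.1 in piezoelectric, 19.8 and 22.8 in ultrasound, and 15.6 and 15.6 in nanosticker. Both nanosticker libraries were the lowest and the ultrasound libraries the next lowest (1.82-fold below control, log2 fold change -0.87 ± 0.098 (SE), adjusted p = 1.52e-05). Kcnma1, the BK pore itself, was at 4.71 and 6.83 CPM in control, 5.19 and 6.12 in piezoelectric, 4.04 and 5.17 in ultrasound, and 7.21 and 6.001 in nanosticker, with groups that overlap (log2 fold change 0.20 ± 0.21 (SE), adjusted p = 0.506). Kcnn2 (chr18:39331894-39479574, plus strand), a small conductance calcium-activated channel that contributes to the afterhyperpolarisation after spikes, has fractional counts and was at 11.6 and 12.7 CPM in control, 13.5 and 11.9 in piezoelectric, 14.1 and 15.8 in ultrasound, and 6.29 and 5.80 in nanosticker. Its nanosticker libraries were below the other 6 (2.01-fold below control, log2 fold change -1.01 ± 0.14 (SE), adjusted p = 7.35e-05). Kcnn3 was at 37.7 and 69.7 CPM in control, 70.5 and 69.3 in piezoelectric, 83.96 and 77.7 in ultrasound, and 43.9 and 39.3 in nanosticker. The control libraries of Kcnn3 lay on either side of the nanosticker libraries, and the change did not pass (log2 fold change -0.37 ± 0.31 (SE), adjusted p = 0.428). Without control replicate 1 the log2 fold change of Kcnn3 was -0.75. That fit leaves 1 control library and takes its spread from the other groups. Kcnmb2, another BK beta subunit, rested on 2 counts in nanosticker and 12 in control, a ratio of 0.173 (95% counting interval 0.0188 to 0.776), and its call (adjusted p = 0.0252) was lost without control replicate 2 (log2 fold change -2.14, adjusted p = 0.109) and without nanosticker replicate 1 (adjusted p = 0.106) or replicate 2 (adjusted p = 0.103), in a range of 0.0214 to 0.180. Kcnt1, the sodium-activated channel, changed by -0.02 ± 0.10 on the log2 scale (adjusted p = 0.904).

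Of 11 tested inward rectifiers, 3 rose and 1 fell. Kcnj10 (chr13:90722945-90753344, plus strand) was at 105 and 144 CPM in control, 145 and 145 in piezoelectric, 154 and 151 in ultrasound, and 229.8 and 212 in nanosticker. Control replicate 1 was the lowest library and both nanosticker libraries were the highest, 1.77-fold above the control mean (log2 fold change 0.83 ± 0.13 (SE), adjusted p = 0.00295). Astrocytes and oligodendrocytes both use Kcnj10. In nanosticker 5 of 6 astrocyte markers were lower than in control and 6 of 6 oligodendrocyte markers were higher. The part of either in the change of Kcnj10 was not tested. Its usual partner Kcnj16 was at 1.61 and 1.93 CPM in control, 1.47 and 2.04 in piezoelectric, 1.35 and 1.79 in ultrasound, and 1.26 and 0.539 in nanosticker and did not pass the test (log2 fold change -0.97 ± 0.39 (SE), adjusted p = 0.0689). It passed with crossed replicate numbers (adjusted p = 0.0401), and its log2 fold change was -1.70 without nanosticker replicate 1. Kcnj12 (chr10:47282208-47343501, plus strand), a strong inward rectifier of the Kir2 family, was at 9.62 and 9.01 CPM in control, 10.3 and 10.4 in piezoelectric, 6.29 and 5.94 in ultrasound, and 30.05 and 33.9 in nanosticker. The nanosticker libraries stood far above the rest (3.43-fold above control, log2 fold change 1.78 ± 0.11 (SE), adjusted p = 6.19e-08). Its relative Kcnj2 was at 2.78 and 1.87 CPM in control, 2.37 and 2.36 in piezoelectric, 2.57 and 1.66 in ultrasound, and 2.71 and 2.16 in nanosticker, with groups that overlap (log2 fold change 0.07 ± 0.29 (SE), adjusted p = 0.878).

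Kir3 channels open on G protein signals. Kcnj6 (chr11:35011007-35262362, minus strand), a neuronal member, was at 2.52 and 2.58 CPM in control, 2.05 and 3.25 in piezoelectric, 1.35 and 1.15 in ultrasound, and 0.794 and 0.607 in nanosticker. Nanosticker libraries were the lowest and ultrasound libraries lay between them and the rest (3.60-fold below control, log2 fold change -1.85 ± 0.34 (SE), adjusted p = 7.96e-04). Kcnj9 (chr13:90703046-90710148, minus strand), which has fractional counts, was at 7.42 and 7.86 CPM in control, 7.63 and 6.70 in piezoelectric, 7.96 and 8.43 in ultrasound, and 10.3 and 13.01 in nanosticker and rose (log2 fold change 0.61 ± 0.15 (SE), adjusted p = 0.00669). Without nanosticker replicate 2 its call was lost (log2 fold change 0.43, adjusted p = 0.0974, in a range of 0.00325 to 0.0974). Kcnj3, the common partner of Kir3 channels, changed by 0.55 ± 0.31 on the log2 scale (adjusted p = 0.186). The pore subunits of ATP-sensitive channels did not pass the test, with log2 fold change -0.44 ± 0.20 (SE), adjusted p = 0.108 for Kcnj11 and log2 fold change 1.32 ± 0.60 (SE), adjusted p = 0.103 for Kcnj8. Without control replicate 1, the log2 fold change of Kcnj8 was 2.44, on fewer than 1 CPM in each library.

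Tandem pore channels were at low levels, and of 5 tested genes 1 rose and 1 fell, both of the halothane-inhibited subfamily. Kcnk12 (chr6:11373917-11494522, minus strand) was at 1.10 and 0.708 CPM in control, 2.12 and 1.15 in piezoelectric, 1.22 and 1.66 in ultrasound, and 4.24 and 4.92 in nanosticker. Nanosticker libraries were the highest, with the largest rise of the 63 genes (5.04-fold, log2 fold change 2.33 ± 0.34 (SE), adjusted p = 1.26e-04). Kcnk13 (chr6:123971030-124077249, plus strand), which in mouse brain is the background potassium channel of microglia, was at 0.904 and 1.16 CPM in control, 0.705 and 1.47 in piezoelectric, 0.642 and 1.21 in ultrasound, and 0.265 and 0.202 in nanosticker. It was lowest in nanosticker (log2 fold change -2.10 ± 0.58 (SE), adjusted p = 0.0127), where 5 of the 6 microglial markers were lower as well and P2ry12 (0.80 and 0.84 TPM, against 0.80 and 0.74 TPM in control) was not. The call was lost without nanosticker replicate 1 (log2 fold change -2.30, adjusted p = 0.0562) or replicate 2 (log2 fold change -1.93, adjusted p = 0.0853), in a range of 0.00607 to 0.0853. Kcnk1 and Kcnk3 changed by -0.20 ± 0.29 and 0.22 ± 0.37 on the log2 scale, neither past the threshold.

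**Figure D4:**
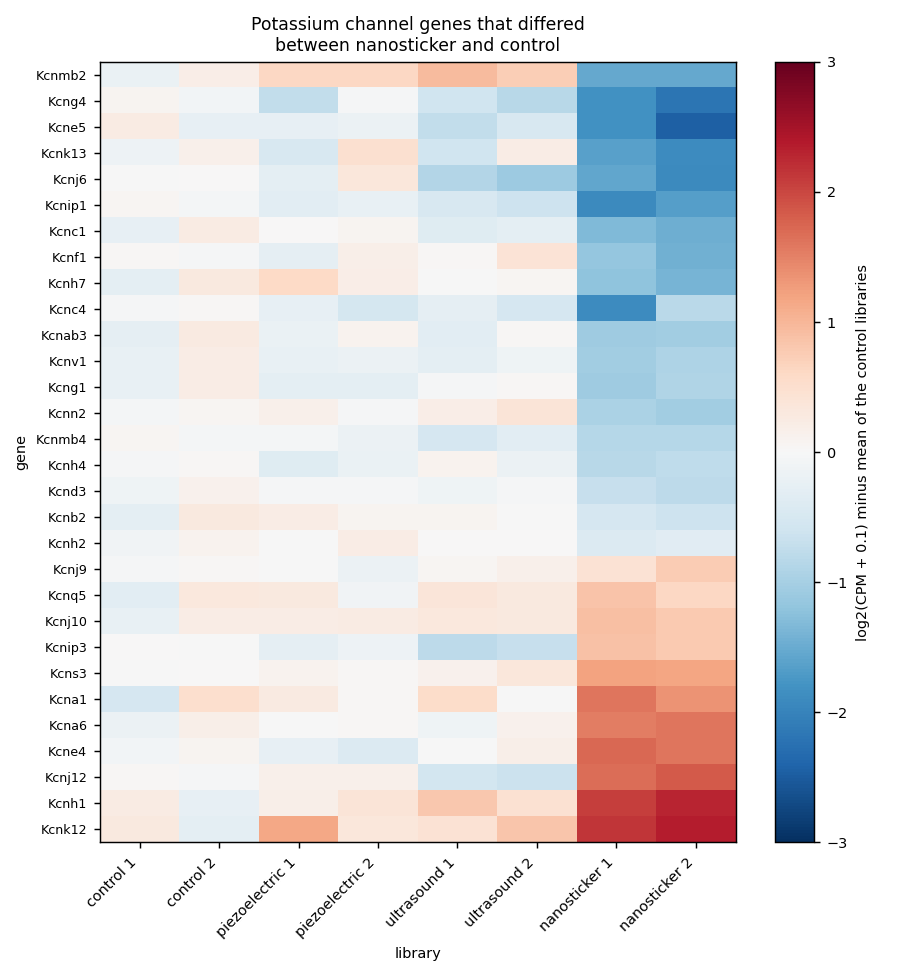
Difference in log2(CPM + 0.1) from the mean of the control libraries for 30 of the 32 potassium channel genes that differed between nanosticker and control (rows, ordered by fold change) in 8 libraries (columns). The 2 nanosticker columns are blue for the 19 lower genes drawn and red for the 11 higher genes, and the piezoelectric and ultrasound columns are mostly paler, with Kcnip3 and Kcnj12 blue in ultrasound.

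The ultrasound comparison with control asks what sound alone does to these genes. Of 63 tested genes 3 fell (4.76%, against 3.16% of all tested genes) and 0 rose (against 4.03%). DESeq2 called 1 lower and 1 higher, together 3.17% of the tested channel genes against 4.44% of all tested genes. In edgeR 15 channel genes had an unadjusted p below 0.05, and the share of all tested genes below it was not counted. Kcnip3 fell from 25.05 ± 0.00131 to 14.9 ± 0.716 CPM, 1.68-fold (log2 fold change -0.74 ± 0.087 (SE), adjusted p = 2.22e-04), a call kept under each alternative. Its ultrasound libraries were the lowest of the 8 and its nanosticker libraries the highest. Kcnj12 fell from 9.32 ± 0.428 to 6.12 ± 0.248 CPM, 1.52-fold (log2 fold change -0.61 ± 0.13 (SE), adjusted p = 0.0101), with the ultrasound libraries lowest and the nanosticker libraries highest here too. The Kcnj12 call was lost without ultrasound replicate 1 (log2 fold change -0.65, adjusted p = 0.0704) or replicate 2 (log2 fold change -0.56, adjusted p = 0.109), in a range of 0.00499 to 0.109. Kcnmb4 fell from 28.4 ± 1.38 to 21.3 ± 2.10 CPM (log2 fold change -0.41 ± 0.095 (SE), adjusted p = 0.0187). The Kcnmb4 call was lost with DESeq2 (adjusted p = 0.107), with the compared groups alone (adjusted p = 0.0765) and without ultrasound replicate 1 (log2 fold change -0.32). Kcnip1 and Kcnj6 lay just outside the threshold (log2 fold change -0.56 ± 0.16 (SE), adjusted p = 0.0531 and log2 fold change -1.02 ± 0.31 (SE), adjusted p = 0.0670). Both passed with the length trend removed (adjusted p = 0.0290 and 0.0467) and with whole counts only (adjusted p = 0.0237 and 0.0420).

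These counts depended on single libraries, and a group left with 1 library was assumed to vary like the others. Without control replicate 2, 8 channel genes were higher in ultrasound and 5 lower, and without control replicate 1, 0 were higher and 7 lower. In both directions together that is 20% of the tested channel genes against 15% of all tested genes without control replicate 2, and 10.9% against 12.1% without control replicate 1. Without ultrasound replicate 1, 1 was lower. Kcnn3 is an example, at 84.0 and 77.7 CPM in ultrasound against 37.7 and 69.7 CPM in control. It did not pass with all libraries (log2 fold change 0.59 ± 0.30 (SE), adjusted p = 0.388), and its log2 fold change was 1.10 without control replicate 2. The 6 oligodendrocyte markers were higher in ultrasound than in control (6 of 6, median log2 fold change 0.49), and their part in the channel gene changes was not tested.

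The piezoelectric comparison with control called 0 of 63 channel genes higher and 0 lower with edgeR, and 0 with DESeq2, where edgeR called 0.16% of all tested genes higher and 0.0698% lower. An unadjusted p below 0.05 was reached by 5 channel genes, Kcnc2, Kcng1, Kcnt1, Kcnip3 and Kcnk12, and the share of all tested genes below it was not counted. The median log2 fold change was 0.03 over the channel genes. The gene nearest to the threshold was Kcnc2, at 3.42 and 2.19 CPM in control, 1.67 and 1.15 in piezoelectric, 2.95 and 2.17 in ultrasound, and 2.65 and 2.29 in nanosticker, lowest in the piezoelectric libraries (log2 fold change -0.99 ± 0.31 (SE), adjusted p = 0.337). Kcnk12 was higher in both piezoelectric libraries than in the controls (log2 fold change 0.85 ± 0.37 (SE), adjusted p = 0.586). Without control replicate 2, 5 channel genes were higher (Kcnn3, Kcnj10, Kcnq3, Kcna2 and Kcnb2) and Kcnc2 was lower, together 9.23% of the tested channel genes against 7.73% of all tested genes. Without control replicate 1, Kcnt1 and Kcng1 were lower, 3.12% against 1.39%. Choroid plexus markers summed to 174 to 201 TPM in piezoelectric and 15.7 to 17.8 TPM in control, of which Ttr made up 165 and 191 TPM in piezoelectric and 9.74 and 7.77 TPM in control. Ttr and Aqp1 were higher, and Otx2 and Folr1 did not pass the test (adjusted p = 0.856 and 0.980). Kcne2, which choroid plexus epithelium uses in mouse, was at 2.84 and 3.03 CPM in control, 2.05 and 2.23 in piezoelectric, 1.99 and 2.04 in ultrasound, and 2.38 and 2.16 in nanosticker (log2 fold change -0.45 ± 0.23 (SE), adjusted p = 0.657). The part of these markers in the channel gene values was not tested.

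**Figure D5:**
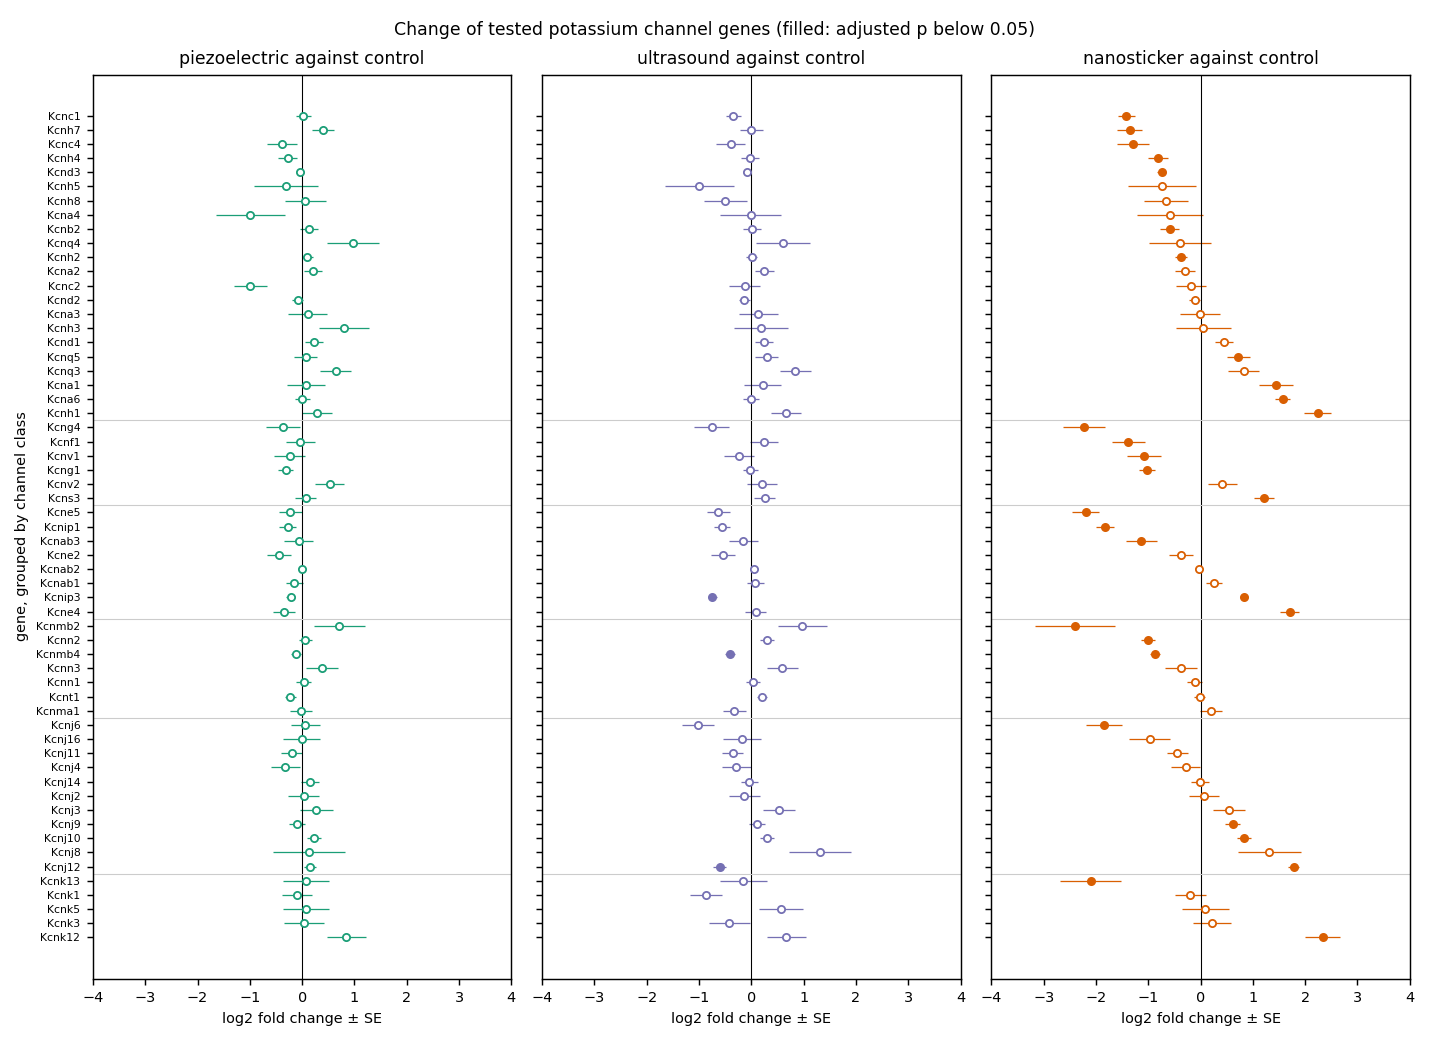
Log2 fold change ± SE of tested potassium channel genes in 3 comparisons with control, in blocks by class and ordered by the nanosticker change, with filled points for adjusted p below 0.05 and Kcnip2 left out for its erratic counts. No point is filled for piezoelectric, 3 for ultrasound, all lower, and 30 of the 32 called are drawn for nanosticker.

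The comparisons of nanosticker with the other treated groups share the nanosticker libraries with the comparison above and are no separate evidence. Against piezoelectric cells, 11 channel genes were higher and 19 lower. That is 17.5% and 30.2% of the tested channel genes, where 18.9% and 17.4% of all tested genes were higher and lower. Against ultrasound cells, 10 were higher and 18 lower, 15.9% and 28.6%, where 17.6% and 16.9% of all tested genes were. Kcnj12 differed more from ultrasound (log2 fold change 2.38 ± 0.12 (SE), adjusted p = 9.68e-09) than from piezoelectric in fold terms (log2 fold change 1.62 ± 0.11 (SE), adjusted p = 1.29e-07), as its ultrasound level was the lowest. Kcnip3 showed the same order, with 1.58 ± 0.084 against ultrasound and 1.05 ± 0.081 against piezoelectric on the log2 scale (adjusted p = 2.01e-08 and 4.23e-07). Kcne4 was higher than in piezoelectric by 2.05 ± 0.19 and than in ultrasound by 1.62 ± 0.18 (adjusted p = 2.10e-06 and 1.47e-05). Kcnj6 was lower than in piezoelectric (log2 fold change -1.91 ± 0.33 (SE), adjusted p = 6.37e-04) and did not pass against ultrasound (log2 fold change -0.83 ± 0.37 (SE), adjusted p = 0.104). The call of Kcnj10 against piezoelectric (log2 fold change 0.61 ± 0.13 (SE), adjusted p = 0.0115) was lost without either piezoelectric library (adjusted p = 0.0754 and 0.0716) or nanosticker replicate 1 (adjusted p = 0.0649), in a range of 1.68e-10 to 0.0754. Without piezoelectric replicate 2, fewer genes were lower than in piezoelectric, and without ultrasound replicate 2, fewer were lower than in ultrasound. Calls over all tested genes, in both directions together, fell in these settings too. Calls held under each alternative for 18 of 30 genes against piezoelectric and 17 of 28 against ultrasound.

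Of the 63 tested genes, 31 were called in none of the 5 comparisons by edgeR with all libraries. Of these 31, 15 passed in a comparison under at least 1 alternative, among them Kcnq3, Kcna2, Kcnn3 and Kcnip2 with DESeq2. For Kcnn3 and Kcna2 both nanosticker libraries lay below all piezoelectric and ultrasound libraries. Against ultrasound, Kcnn3 missed the threshold in edgeR (log2 fold change -0.96 ± 0.30 (SE), adjusted p = 0.0767) and passed with DESeq2 (log2 fold change -0.95, adjusted p = 0.0121), with the compared groups alone (adjusted p = 1.60e-10) and without either control library. Kcna2 likewise missed it (log2 fold change -0.55 ± 0.18 (SE), adjusted p = 0.0637) and passed with DESeq2 (log2 fold change -0.54, adjusted p = 0.00161) and with the compared groups alone (adjusted p = 4.39e-06). Against piezoelectric, Kcna2 missed it too (log2 fold change -0.51 ± 0.18 (SE), adjusted p = 0.0778) and passed with DESeq2 (adjusted p = 0.00346), and Kcnn3 missed it (log2 fold change -0.75 ± 0.30 (SE), adjusted p = 0.136) and passed with the compared groups alone (adjusted p = 2.35e-08). Across the 63 genes the nanosticker change had a Spearman rho of -0.0816 with transcript length, as a description over genes of shared libraries.

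Some channel genes lie next to each other in the genome (Rnor 6.0, coordinates of the deposited table). Kcnj9 and Kcnj10, both higher in nanosticker, lie 12.8 kb apart on chromosome 13 on opposite strands. Kcna1 and Kcna6, both higher as well, lie 60.4 kb apart on chromosome 4 on opposite strands, with Kcna5 112 kb from Kcna1 at no more than 0.577 CPM in a library. Kcna2 and Kcna3, neither called, lie 70.3 kb apart on chromosome 2. Kcnj16 and Kcnj2, neither called, lie 37.5 kb apart on chromosome 10. Kcnmb1 lies inside Kcnip1 on the same strand of chromosome 10, with at most 0.128 CPM in a library. These counts cannot tell whether reads of the overlap were counted for Kcnip1.

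A list of 30 genes that work with potassium channels or move potassium was followed beside them, and 27 were tested. In nanosticker cells 5 of the 27 were higher and 10 lower than control, with a median log2 fold change of -0.11. Of all tested genes, 19.8% were higher and 17.7% lower in that comparison. Slc12a2, the inward sodium, potassium and chloride cotransporter, was at 156 and 168 CPM in control, 149.7 and 148 in piezoelectric, 193 and 208 in ultrasound, and 427 and 414 in nanosticker and was highest in nanosticker (log2 fold change 1.38 ± 0.059 (SE), adjusted p = 2.62e-09). Ank3, a scaffold of the axon initial segment, rose (log2 fold change 0.89 ± 0.12 (SE), adjusted p = 3.49e-04). Among the proteins that place Kv1 channels on axons, Cntn2 rose (log2 fold change 0.68 ± 0.18 (SE), adjusted p = 0.00954) and Cntnap2 fell (log2 fold change -1.32 ± 0.27 (SE), adjusted p = 0.00192). Lgi1, a secreted protein that modulates Kv1 channels, fell from 1.81 and 1.80 CPM in control to 0.199 and 0.472 CPM (log2 fold change -2.41 ± 0.43 (SE), adjusted p = 7.54e-04). Of the h-current channel genes, Hcn3 and Hcn4 were lower (log2 fold change -0.82 ± 0.23 (SE), adjusted p = 0.0147 and log2 fold change -1.57 ± 0.29 (SE), adjusted p = 8.43e-04). Abcc8, the sulfonylurea receptor of ATP-sensitive channels, fell (log2 fold change -1.13 ± 0.21 (SE), adjusted p = 9.09e-04). Also called were Slc12a7 (higher) and Dpp6 and Lrrc55 (lower), with log2 fold changes of 0.49, -0.22 and -0.39.

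In ultrasound cells 2 of the 27 were higher than control and 3 lower, where 4.03% of all tested genes were higher and 3.16% lower. Atp1b1, a beta subunit of the sodium pump, rose (log2 fold change 0.41 ± 0.053 (SE), adjusted p = 4.02e-04), as did Slc12a2 (log2 fold change 0.31 ± 0.059 (SE), adjusted p = 0.00599). Among the lower genes were Dpp10, a Kv4 partner (log2 fold change -0.44 ± 0.080 (SE), adjusted p = 0.00473), and Abcc8 (log2 fold change -0.77 ± 0.20 (SE), adjusted p = 0.0379). In piezoelectric cells 0 were higher and 0 lower with edgeR, where 0.16% and 0.0698% of all tested genes were. An unadjusted p below 0.05 was reached by 5 of the 27, and the share of all tested genes below it was not counted. Against piezoelectric, 3 were higher and 9 lower in nanosticker, where 18.9% and 17.4% of all tested genes were. Against ultrasound 7 were higher and 7 lower, where 17.6% and 16.9% of all tested genes were.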

How the data were processed

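Polyadenylated RNA of cultured rat neural stem cells (4 groups of 2 samples) was enriched with oligo(dT), primed with random hexamers and sequenced as DNA nanoballs, per the labels' protocols. The authors deposited 1 table of estimated counts, FPKM and TPM per gene and library, per the file headers, of which 10.5% of the expected counts are not whole at a tolerance of 0.005. The deposited TPM were used to compare levels between genes, and the deposited FPKM were used to derive an effective length. Coordinates are on Rnor 6.0, the build named in the submitters' processing notes. Not given in the sources used here are the aligner, the counter and strand settings, so that reads of overlapping genes cannot be told apart. A gene whose counts are not all whole is said to have fractional counts. The correlation matrix that came with the table was left aside.

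Rounded counts went through edgeR 4.0.16 in R 4.3.3: filterByExpr, TMM, 1 robust quasi-likelihood fit of the 8 libraries with a mean per group (4 residual degrees of freedom, biological coefficient of variation 7.09%), two-sided F tests and Benjamini-Hochberg adjustment over 14336 genes with a threshold of 0.05. The SE is the log2 fold change divided by the square root of F. Library totals were alike, so counting error limits genes with few counts in each group. The interval of a count ratio covers counting error only. Alternatives were DESeq2 1.42.0, other size factors, no filter, a stricter one (mean count of at least 20, and 1 CPM in 2 libraries), a block for the replicate number, the compared groups alone, removal of each library's length trend (lowess, span 0.3), whole counts only, and each library left out.

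The genes, families and lists were chosen with earlier results of these data known. Named by rule were called genes without overlap between groups and with at least 1 CPM (up to 15 each way against control, 8 otherwise), the 12 highest control TPM, the highest of each family and a fixed set of well-known channels. Further genes, among them Kcnh4, Kcnb2, Kcnmb2, Kcna2, Kcna3, Kcnj2, Kcnj16 and Kcne2, were chosen after their values were seen. Some genes of these lists are counted in the totals and not reported here, nor drawn gene by gene in the figures.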

Additional observations from a re-analysis of the deposited data

How the results depend on the processing

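With 2 libraries a group, calls near the threshold moved with single libraries, above all with the controls. For ultrasound against control the count of higher genes was 0, against 1 with DESeq2 and 1 with the length trend removed. The count of lower genes was 3, against 1 with DESeq2, 1 with the compared groups alone, 7 with the length trend removed and 5 with whole counts only. In both directions together, the length trend removed gave 12.7% of the tested channel genes against 11% of all tested genes. Whole counts only gave 9.09% against 9.14%, DESeq2 3.17% against 4.44%, and the compared groups alone 1.64% against 3.41%. With 1 library left out, the counts ran from 0 to 5 higher and 0 to 2 lower for piezoelectric against control, 0 to 8 higher and 1 to 7 lower for ultrasound against control, and 10 to 13 higher and 14 to 25 lower for nanosticker against control. They ran from 8 to 14 higher and 12 to 22 lower against piezoelectric, and 7 to 12 higher and 11 to 21 lower against ultrasound. Kcna3 in nanosticker against control ran from -0.49 to 0.70 on the log2 scale over these settings, the upper end without control replicate 2. The number of calls over all tested genes also moved with the library left out. A group left with 1 library was assumed to vary like the others. The cause was not tested. In the labels, same-numbered samples share only a number. The differences between replicates 1 and 2 correlated at -0.136 to 0.135 between groups, and whether same-numbered samples share a batch was not tested. With the replicate block, nanosticker against control gave 11 higher and 19 lower genes, against piezoelectric 11 and 17, against ultrasound 10 and 16, ultrasound against control 0 and 3, and piezoelectric against control 0 and 0. With crossed numbers, chosen after seeing the data, these were 12 and 21 for nanosticker against control, 11 and 19 against ultrasound, and 0 and 3 for ultrasound against control. Genes under a few CPM, such as Kcnmb2 and Kcnk13, are limited by depth.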
